A study of Mus musculus with 4 samples.

Results

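Genes for protein folding in the endoplasmic reticulum (ER) and for moving nascent secretory proteins into it were examined in Drop-seq data of mouse vaginal epithelium. The set holds 31 named genes of the 25071 gene symbols in the deposited matrices, and all 31 were found. They were chosen by name, with earlier results of these data known. By role they were grouped into 5 chaperones and lectins, 4 disulfide isomerases, 6 co-chaperones and secreted factors, 5 stress factors and degradation genes, 3 subunits of the translocation channel, 4 translocon-associated subunits and 4 signal peptidase subunits. A protein bound for secretion or for a membrane enters the ER through the Sec61 channel, loses its signal peptide to signal peptidase, and is folded by chaperones such as BiP and by disulfide isomerases. When unfolded proteins accumulate, the unfolded protein response raises many of these genes through the factors XBP1, ATF6 and ATF4. The vaginal epithelium of cycling rodents alternates under ovarian steroids between a stratified, cornifying state and a thinner state with mucus-secreting surface cells.

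All 4 libraries came from C57BL/6 mice, and each was labelled as a pool of 5 mice. The 2 libraries named WT came from mice with ovaries, whose cycle stage is not given in the labels, and the 2 named OVX from mice whose ovaries had been removed by surgery. The age of the mice and the time since surgery are likewise not given. The series text speaks of duplicate runs of pooled samples, so it is unclear whether the libraries of a group are separate pools. The p-values between OVX and WT below measure only the spread between libraries, which may be technical. The later comparisons of cell layers within libraries had few residual degrees of freedom, and their error came mainly from the trend across genes.

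Drop-seq captures single cells in droplets and counts transcripts by unique molecular identifiers (UMIs). The 4 libraries held between 991112 and 5845107 UMIs. After cells with fewer than 200 genes or more than 20% mitochondrial UMIs were left out, 8446 of 10000 barcodes remained, and levels are given below as CPM, the UMIs of a gene scaled to 1000000 UMIs of the kept cells of a library. Median UMIs per kept cell were 1597 and 799 in WT libraries 1 and 2, and 435 and 738 in OVX libraries 1 and 2. Several other measures differed between the groups. Mitochondrial transcripts took a median of 3.85% to 4% of a cell's UMIs in WT and 8.97% to 9.69% in OVX. The nuclear long RNA Malat1 took 0.336% and 0.465% of UMIs in WT and 2.50% and 1.81% in OVX. The 9 dissociation-response genes summed to 647 and 814 CPM in WT and 1090 and 879 in OVX, but did not share a direction. Dnajb1 was called lower in OVX (log2 fold change -1.75, adjusted p 0.0476, edgeR), and Hspa1a and Hspa1b had negative fold changes. Fos, Jun, Junb, Egr1 and Ier2 had positive ones and were not called. The share of cells with a UMI of a proliferation marker was 48.8% and 37.9% in WT and 2.23% and 5.56% in OVX. All 9 myeloid markers were detected, and they summed to 129 and 143 CPM in WT and 905 and 497 in OVX. All 6 fibroblast markers were detected too, and summed to 1.37 and 26.9 CPM in WT and 210 and 193 in OVX. Plasma cells are secretory cells rich in ER proteins, and 2 of their 6 listed markers had an entry in the matrices. Ighm had 1 and 2 UMIs in WT and 3 and 4 in OVX, and Jchain had 1 UMI, in OVX library 1. Together they came to 0.171 and 1.04 CPM in WT and 5.01 and 2.44 in OVX. The part of these other cell types in the results below was not tested, apart from the comparison without non-epithelial cells. The 6 epithelial markers were all detected, and summed to 39520 and 22770 CPM in WT and 5638 and 6540 in OVX. They did not share a direction, as Krt14 had 17560 and 16650 CPM in WT and 2262 and 2206 in OVX. Epcam had 152 and 114 in WT and 648 and 795 in OVX, and Krt8 had only 3 and 2 UMIs in WT. Pairs of libraries shared between 2 and 15 barcodes, of which at most 5 per pair were kept cells.

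The best-known control element of this gene set is the ER stress response element, read as CCAAT, any 9 bases and CCACG, which is bound by NF-Y and by ATF6 or XBP1. It was searched on both strands in the 250 bases before the RefSeq start of each gene (GRCm38.p6), together with its relative ERSE-II, read as ATTGG, any base and CCACG. The promoter table held 26 of the 31 genes. The first element was present in 7 of these 26, against 0.113% of the 32851 promoters in the table, and the second was present in Herpud1, against 0.0304% of promoters. The UPRE letters TGACGTGG, present in 0.563% of promoters, were in none of the 26 windows. The matches are shown because they mark which members carry the full element. Each is read on the strand that gives the motif, with 5 flanking bases on either side and the fixed letters of the motif in capitals, and no 2 of the printed matches overlapped.
Hspa5, chr2:34772020-34772048, plus strand: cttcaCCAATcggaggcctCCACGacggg
Hsp90b1, chr10:86705528-86705556, plus strand: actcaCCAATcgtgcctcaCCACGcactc
Hsp90b1, chr10:86705633-86705661, minus strand: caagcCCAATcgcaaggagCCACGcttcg
Calr, chr8:84847070-84847098, plus strand: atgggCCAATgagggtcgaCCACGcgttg
Canx, chr11:50325795-50325823, minus strand: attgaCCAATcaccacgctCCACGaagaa
Pdia6, chr12:17266486-17266514, plus strand: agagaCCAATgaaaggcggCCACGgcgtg
Dnajc3, chr14:118937822-118937850, plus strand: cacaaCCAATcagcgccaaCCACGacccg
Creld2, chr15:88819515-88819543, minus strand: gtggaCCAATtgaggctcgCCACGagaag
Herpud1, chr8:94386372-94386392, plus strand: cgctgATTGGgCCACGttgga
Hsp90b1 carried the first element at 2 places. A match describes these letters only and shows no binding.

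In sums over all kept cells, none of the 31 genes passed the test between OVX and WT. The set together took 0.707% and 0.685% of UMIs in WT libraries 1 and 2 and 0.530% and 0.575% in OVX libraries 1 and 2. All 31 genes passed the filter on low counts. With edgeR's quasi-likelihood test over the 11495 genes tested, 587 genes (5.11%) passed a Benjamini-Hochberg adjusted p of 0.05, 2.58% higher and 2.52% lower in OVX, and 0 of the 31 members did. At an unadjusted p under 0.05 there were 7 of 31 members, against 2298 of the 11495 genes tested (19.99%), and DESeq2 and limma-trend also called 0. The fitted log2 fold change was negative for 24 members and positive for 7, with a median of -0.43 against -0.03 over all genes tested. Scaling by library totals in place of TMM put the median of all genes at 0.11 and that of the members at -0.28. A fit without mitochondrially encoded genes and Malat1 called 0 members, with a member median of -0.41. It had 6 members at an unadjusted p under 0.05, against 20.2% of all genes (edgeR). In CPM, 10 members were lower in both OVX libraries than in both WT libraries and 4 were higher. Of all genes tested, 21.2% were lower without overlap and 29.1% higher. In a sum over all cells, fewer cells of a type and less RNA per cell cannot be told apart.

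**Figure D1:**
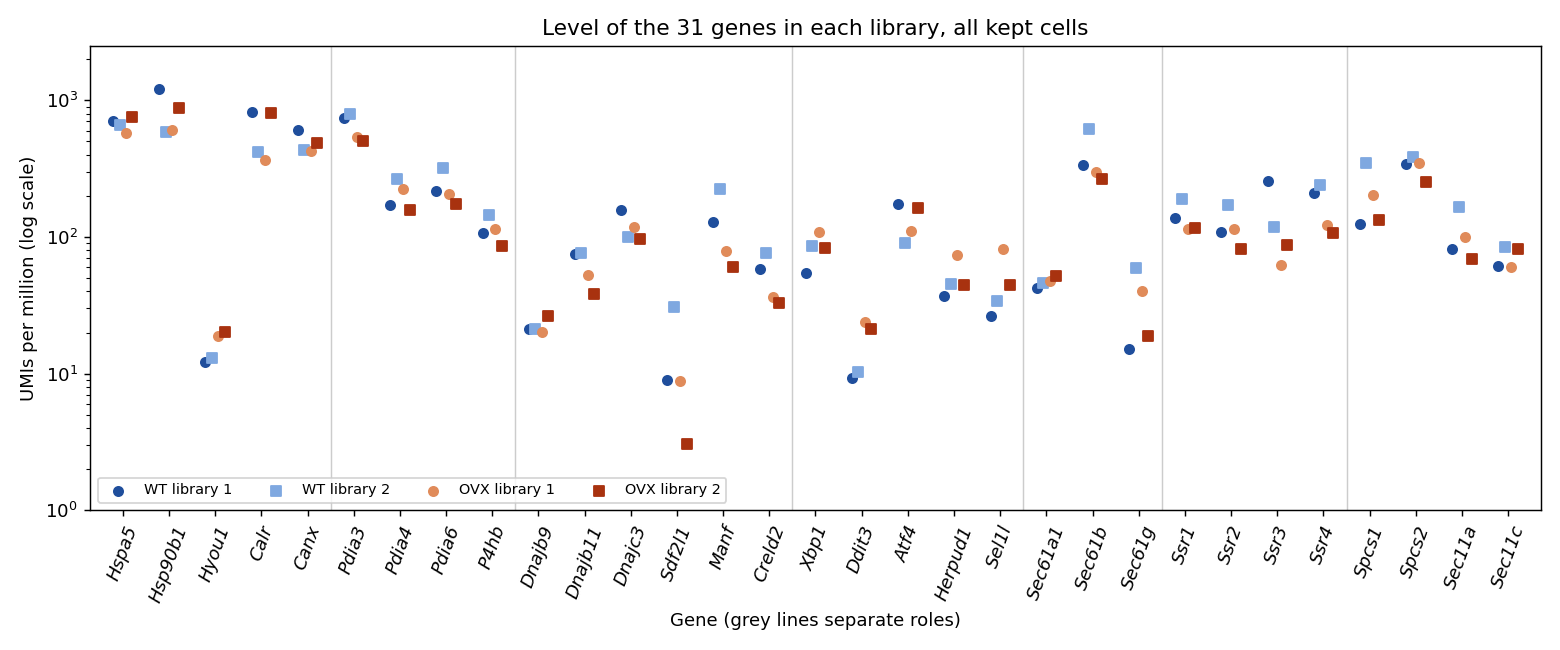
Level of each of the 31 genes in each of the 4 libraries, summed over all kept cells, in CPM on a log scale, with grey lines between roles. Manf, Creld2, Ssr4 and 7 other genes lie lower in both OVX libraries than in both WT libraries, while the libraries of the 2 groups interleave for Hspa5, Hsp90b1 and Calr.

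Chaperones and lectins hold unfolded chains and glycoproteins in the ER. Hspa5, which encodes the Hsp70 chaperone BiP and is the usual readout of the unfolded protein response, stood at 706 and 663 CPM in WT and 576 and 750 in OVX. The OVX libraries thus lay on either side of both WT libraries, and the log2 fold change was -0.18 ± 0.41 (SE; adjusted p 0.857, edgeR). Hsp90b1, the ER Hsp90 paralog GRP94, stood at 1207 and 591 in WT and 610 and 882 in OVX. Calr, the soluble glycoprotein chaperone calreticulin, had 823 and 416 in WT and 364 and 809 in OVX. For both genes WT library 1 and OVX library 2 were high and the other 2 libraries low, so that the spread within a group was larger than the difference between groups. Canx, the membrane-bound lectin calnexin, ranged from 426 to 606 over the 4 libraries. Hyou1, a large Hsp70 relative that acts as a nucleotide exchange factor for BiP, had 12.2 and 13 in WT and 18.8 and 20.2 in OVX, without overlap, and a log2 fold change of 0.51 ± 0.44 (adjusted p 0.576, edgeR).

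Disulfide isomerases form and rearrange the disulfide bonds of secretory proteins. All 4 had a negative fold change, with a median of -0.55 on the log2 scale, and none passed the test (smallest adjusted p 0.373, edgeR). Pdia3, which works with calnexin and calreticulin on glycoproteins, stood at 748 and 790 CPM in WT and 543 and 505 in OVX. Its 2 libraries of each group lay close together and the groups did not overlap. Its log2 fold change was -0.69 ± 0.39. Pdia6, an isomerase that also binds the stress sensor IRE1, had 219 and 319 in WT and 208 and 173 in OVX. Pdia4 and P4hb overlapped between the groups, with ranges of 159 to 264 and 85.5 to 145 over the 4 libraries.

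The co-chaperones and secreted factors held the lowest fitted fold changes of the set. Manf, a small ER protein that is released under stress and stabilises BiP-client complexes, stood at 130 and 225 CPM in WT and 78.9 and 60.5 in OVX. Both OVX libraries lay below both WT libraries, and the log2 fold change of -1.49 ± 0.44 had the smallest adjusted p of the 31 genes (0.104, edgeR). Creld2, an ER stress-inducible protein with isomerase-like activity, had 58.7 and 76.7 in WT and 36.3 and 33.0 in OVX (log2 fold change -1.10 ± 0.39, adjusted p 0.170, edgeR). Dnajb11, the J-domain partner of BiP that acts on secretory proteins, had 75.6 and 76.7 in WT and 52.6 and 38.5 in OVX (-0.90 ± 0.38, adjusted p 0.247, edgeR). These 3 genes were lower in both OVX libraries, as was Sdf2l1, a partner of Dnajb11, with 8.92 and 30.6 in WT and 8.76 and 3.06 in OVX. Sdf2l1 had the widest spread between WT libraries of these genes, and its log2 fold change was -1.96 ± 0.79 (adjusted p 0.218, edgeR). Some alternatives called genes of this group. Without the low-count filter Manf and Sdf2l1 passed the test (adjusted p 0.0311 and 0.0250, edgeR), in a fit that called 5.47% of all genes. With the libraries paired crosswise, as described below, Manf, Sdf2l1, Creld2 and Dnajb11 passed, in a fit that called 30.4% of all genes. Over the 14 alternatives run, the log2 fold change ranged from -1.80 to -1.12 for Manf. For Sdf2l1 it ranged from -2.69 to -0.95. The J-domain genes Dnajb9 and Dnajc3 overlapped between the groups, with 20.03 to 26.3 and 95.9 to 159 CPM.

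Stress factors and degradation genes were the only role with a positive median, at 0.37 on the log2 scale, and none of the 5 passed the test. Ddit3, which encodes the stress-induced factor CHOP, had 9.26 and 10.4 CPM in WT and 23.8 and 21.4 in OVX. The groups did not overlap, but the values rest on 54 and 20 UMIs in WT and 19 and 35 in OVX, and the log2 fold change of 1.07 ± 0.44 had an adjusted p of 0.229 (edgeR). Sel1l, the adaptor of the HRD1 ubiquitin ligase in ER-associated degradation, stood at 26.6 and 34.2 in WT and 81.4 and 44.6 in OVX (0.89 ± 0.43, adjusted p 0.299, edgeR). Its OVX libraries were both above the WT libraries and far from each other. Xbp1, whose mRNA is spliced by IRE1 to make an active factor, had 54.7 and 85.5 in WT and 109 and 82.5 in OVX. Herpud1, another degradation factor, had 36.9 and 45.6 in WT and 73.9 and 44.6 in OVX. Both genes overlapped between groups, and the counts do not separate spliced from unspliced Xbp1. Atf4, the main factor of the integrated stress response, which is controlled largely by translation, ranged from 89.6 to 173, and its fold change of -0.06 became 0.07 when libraries were scaled by their totals.

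None of the 11 genes of entry into the ER passed the test (edgeR), and 2 of them, both translocon-associated subunits, had an unadjusted p under 0.05. Of the 3 channel subunits, Sec61b stood at 335 and 614 CPM in WT and 299 and 264 in OVX (log2 fold change -0.89 ± 0.44, adjusted p 0.314, edgeR). Sec61b counts are uncertain, because 46.8% of the 50-base words in the last 500 bases of its transcript also occur in other genes. Sec61g ranged from 15.1 to 59.1, with the extremes both in WT. Sec61a1, the pore itself, had 42.0 and 46.1 in WT and 47.6 and 51.9 in OVX, higher in OVX without overlap by a small margin, with a log2 fold change of 0.05 ± 0.38 (adjusted p 0.964, edgeR). The translocon-associated complex, which aids the entry of some signal sequences, had a negative fold change for each of its 4 subunits and a median of -0.89. Ssr4 had 210 and 239 in WT and 121 and 107 in OVX, with no overlap and close duplicates (-1.12 ± 0.38, adjusted p 0.154, edgeR). Ssr3 had 258 and 119 in WT and 62.6 and 87.4 in OVX (-1.46 ± 0.50, adjusted p 0.156, edgeR). Its groups did not overlap either, but WT library 1 was far above WT library 2. Over the 14 alternatives run, its log2 fold change ranged from -1.96 to -0.74. Ssr3 passed the test without the low-count filter (adjusted p 0.0267, edgeR), in a fit that called 5.47% of all genes. Ssr1 had 139 and 191 in WT and 115 and 116 in OVX, and Ssr2 ranged from 81.9 to 171 with overlap. All 4 signal peptidase genes, Spcs1, Spcs2, Sec11a and Sec11c, had negative fold changes (median -0.53) and overlapping groups. Spcs1 ran from 125 in WT library 1 to 346 in WT library 2, a range that held both OVX libraries.

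**Figure D2:**
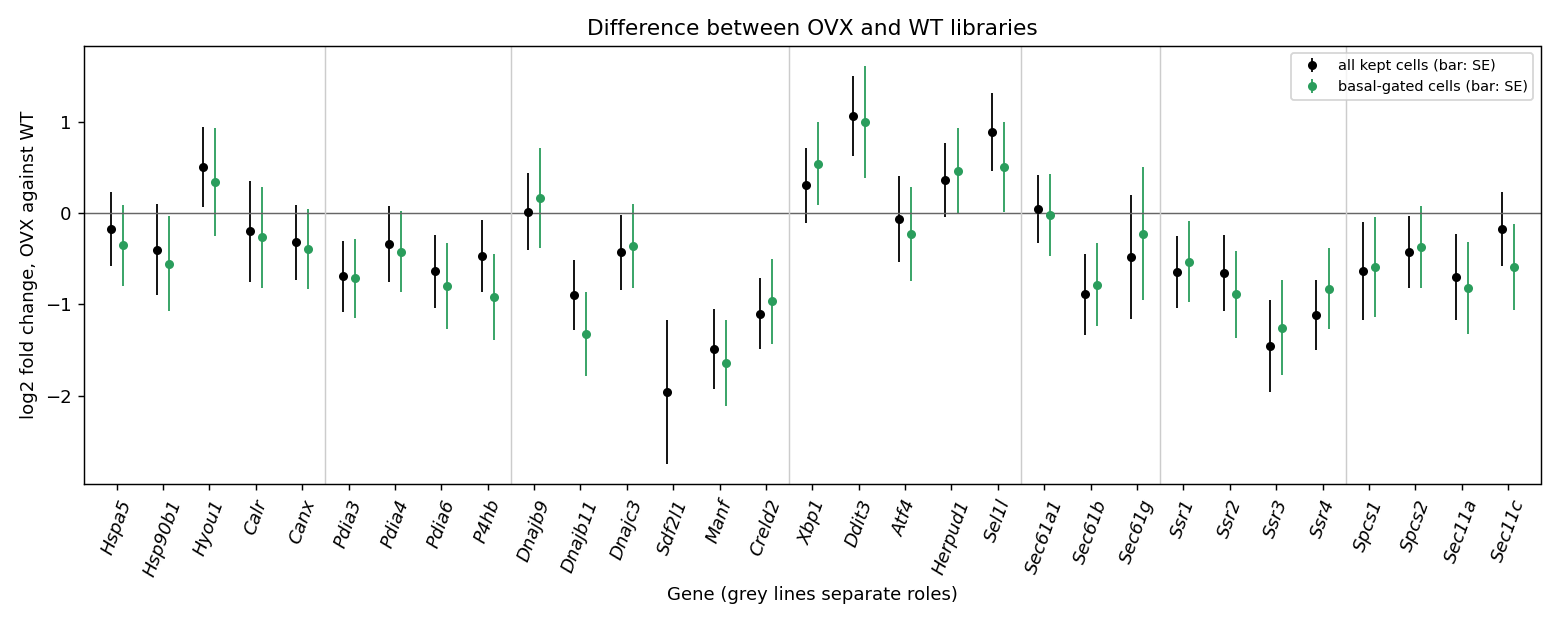
Fitted log2 fold change of OVX against WT for each gene (points, with bars of 1 SE), in all kept cells (black) and in basal-gated cells (green). Most points lie below 0, with Manf at -1.49 and -1.64, and Ddit3 lies above it at 1.07 and 1.00, but none passed the adjusted threshold in either set of cells.

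The 2 libraries of each group differed from each other in mirrored ways. Of the 31 members, 25 had a difference between WT libraries 1 and 2 of the opposite sign to the difference between OVX libraries 1 and 2. Over all 11495 genes tested the share was 70.9%. Hspa5, Hsp90b1, Calr, Canx, Atf4 and Ssr3 were higher in WT library 1 and in OVX library 2. The other 19, among them Sec61g, Sdf2l1, Spcs1, Sec11a and Sec61b, were higher in WT library 2 and in OVX library 1. For Calr the 2 differences were 0.99 and -1.25 on the log2 scale, and for Sec61g -1.91 and 0.95. A fit that pairs WT library 1 with OVX library 2 and WT library 2 with OVX library 1, chosen after seeing the data, ends the count of 0 called members. It called 2 members higher and 7 lower in all kept cells, where it called 30.4% of all genes (3489), and 8 lower in the basal gate, where it called 23.7% (1865). No label gives this pairing. It puts together the deeper library of each group, as median UMIs per kept cell were 1597 in WT library 1 and 799 in WT library 2. In OVX they were 435 in library 1 and 738 in library 2. The part of depth in the pattern was not tested.

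**Figure D3:**
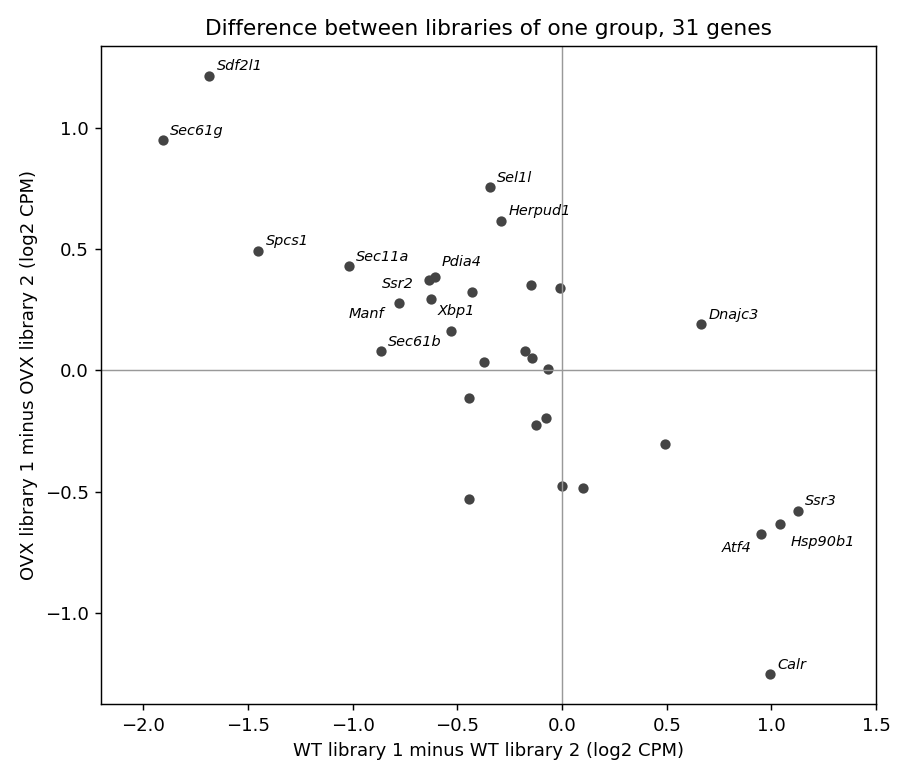
Difference between the libraries of one group for each gene, in log2 CPM: WT library 1 minus 2 on the horizontal axis and OVX library 1 minus 2 on the vertical axis. Most points fall in the upper left and lower right of the plot, as 25 of 31 genes had opposite signs, with Sec61g and Sdf2l1 at one end and Calr, Ssr3 and Hsp90b1 at the other.

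To compare cells of 1 layer, cells were gated by marker UMIs that include none of the 31 genes. The basal gate (Krt5, Krt14, Krt15, integrins and others) took 1666 and 491 cells in WT and 801 and 981 in OVX. It did not hold like cells in both groups. Krt14 stood there at 18040 and 15870 CPM in WT and 2997 and 2770 in OVX. Epcam stood at 115 and 116 in WT and 477 and 542 in OVX, while Krt15 overlapped between the groups. The part of such differences in the results of this gate was not tested. Among these cells the members took 0.763% and 0.706% of UMIs in WT and 0.493% and 0.541% in OVX. Of 7873 genes tested, 310 (3.94%) passed the adjusted threshold, 1.36% higher and 2.58% lower in OVX, and 0 of the 30 members tested did (edgeR). Sdf2l1 did not pass the low-count filter. There were 3 of 30 members at an unadjusted p under 0.05, against 17.2% of all genes tested, and DESeq2 also called 0. The median log2 fold change was -0.48, with 24 members negative and 6 positive, against a median of -0.04 over all genes tested. In CPM, 17 of the 31 members were lower in both OVX libraries without overlap and 4 were higher. The shares over all genes tested in the gate were 24.7% and 23.6%.

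In basal-gated cells the lowest fold changes belonged to Manf, Dnajb11 and Ssr3. Manf stood at 150 and 241 CPM in WT and 71.2 and 56.5 in OVX (log2 fold change -1.64 ± 0.47, adjusted p 0.0932, edgeR). Dnajb11 had 85.0 and 91.6 in WT and 44.8 and 28.9 in OVX (-1.32, adjusted p 0.170, edgeR). Ssr3 had 283 and 118 in WT and 79.1 and 94.6 in OVX (-1.25, adjusted p 0.245, edgeR). All 3 were lower in OVX without overlap and missed the threshold. Hspa5, which overlapped in all kept cells, had 786 and 721 in WT basal-gated cells and 509 and 696 in OVX (-0.35, adjusted p 0.737, edgeR). P4hb had 103 and 176 in WT and 84.4 and 65.7 in OVX. Xbp1 and Ddit3 were higher in OVX without overlap. Xbp1 had 50.8 and 64.8 in WT and 105 and 67.0 in OVX, and Ddit3 rested on 7 to 32 UMIs per library. Sec61a1 changed sign with the scaling in this gate, at -0.02 with TMM and 0.02 with library totals. Basal-gated cells of WT and OVX also differed in cycling, with a proliferation UMI in 55% and 43.2% of WT cells and 2.37% and 4.79% of OVX cells. Without those cells 0 members were called as well, with 3 at an unadjusted p under 0.05, against 15.1% of all genes, and a median of -0.39. A test of suprabasal-gated cells between the groups was not run, since OVX library 1 held 46 of them, under the minimum of 50. In CPM, 9 members were lower there in OVX without overlap, 3 were higher (Hspa5, Hsp90b1 and Sel1l) and 19 overlapped. No share over all genes was computed for this gate, so these counts have no background. The 9 lower members rest on few UMIs in OVX libraries 1 and 2, from 0 and 0 for Dnajb9 to 3 and 16 for Spcs2. Sel1l rests on 2 and 5. Hspa5 had 510 and 528 in WT and 723 and 927 in OVX. Hsp90b1 had 774 and 439 in WT and 861 and 985 in OVX. These OVX values rest on 21 to 51 UMIs.

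Other genes of the same pathways were counted from lists of 6 processes. In all kept cells 145 of these genes were tested, and 1 passed the threshold. This was Nupr1, a stress-induced chromatin-associated factor, with 8.23 and 16.6 CPM in WT and 115 and 76.4 in OVX. It rose by 2.84 ± 0.49 on the log2 scale (adjusted p 0.0191, edgeR) and was the 1 called gene among 19 tested sensors and integrated stress response genes. In basal-gated cells Nupr1 did not pass the low-count filter, and it overlapped there between WT (4.59 and 13.4 CPM) and OVX (36.9 and 6.57). In luminal-gated cells of OVX it had 413 and 241 CPM, and that gate took 2.62% and 3.17% of kept cells in WT and 8.14% and 12.6% in OVX. The gate did not hold like cells in both groups, as Krt8 stood there at 8.63 and 0 CPM in WT and 456 and 422 in OVX. In suprabasal-gated cells Nupr1 had 18.6 and 29.4 CPM in WT and 172 and 270.5 in OVX, the latter on 5 and 14 UMIs. No gene was called among 22 of ER-associated degradation, 27 other folding factors, 21 other translocation factors, 23 of N-glycosylation and 33 of ER exit and retrieval. At an unadjusted p under 0.05 these 5 lists held 2, 3, 3, 2 and 7 genes (edgeR), against 19.99% of all genes tested. Of the ER exit genes, 29 of 33 had a negative fold change with a median of -0.50, and of the N-glycosylation genes 18 of 23 with a median of -0.39. Negative fold changes were fewer in the remaining lists, against 51.4% of all genes tested. They numbered 13 of 22 for degradation, 14 of 27 for other folding factors, 13 of 21 for other translocation factors and 9 of 19 for sensors. In the basal gate 0 of 122 list genes were called (edgeR), with 14 at an unadjusted p under 0.05, against 17.2% of all genes tested.

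In ovariectomised mice the luminal gate (Krt7, Krt8, Krt18, Cldn3, Muc1, Pigr, Ltf) took 128 and 240 cells, and 3 of the 27 members tested were higher there than in basal-gated cells of the same libraries. These were Sel1l, Sec11c and P4hb, and none was lower. The members took 0.617% and 0.644% of UMIs in luminal-gated cells, against 0.493% and 0.541% in basal-gated cells. The gate differed from the basal gate in a marker it did not use, as Epcam stood at 1032 and 1357 CPM in luminal-gated and 477 and 542 in basal-gated cells. Epcam also stood at 792 and 1043 in suprabasal-gated cells of OVX, so it does not tell luminal from suprabasal cells. The suprabasal marker Krt13 had 554 and 558 CPM in luminal-gated and 2.64 and 11.8 in basal-gated cells. Krt5 nevertheless stood at 2009 and 2983 in luminal-gated cells, near the 2304 and 3027 of basal-gated cells. Of the 5758 genes tested with the library as a block, 516 (8.96%) were called, 301 (5.23%) higher and 215 (3.73%) lower in the luminal gate. The members' median log2 difference was 0.30, with 24 of 27 positive, against -0.02 over all genes tested. Hyou1, Dnajb9, Sdf2l1 and Ddit3 did not pass the low-count filter.

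Sel1l stood at 163 and 59.3 CPM in luminal-gated cells and at 42.2 and 28.9 in basal-gated cells of OVX libraries 1 and 2. It was higher in the luminal gate in both libraries, by 1.40 ± 0.40 on the log2 scale (adjusted p 0.00660, edgeR), and the 4 values rest on 15, 17, 16 and 22 UMIs. Sec11c, the catalytic subunit of one form of signal peptidase, had 97.8 and 115 in luminal-gated and 36.9 and 57.8 in basal-gated cells, and differed by 1.05 ± 0.33 (adjusted p 0.0177, edgeR). P4hb, the classic protein disulfide isomerase, had 206 and 108 in luminal-gated and 84.4 and 65.7 in basal-gated cells, and differed by 0.90 ± 0.29 (adjusted p 0.0279, edgeR). Both were higher in the luminal gate in both libraries. These values rest on 9 to 33 UMIs in the luminal gate for Sec11c and 19 to 31 for P4hb. Xbp1 had 141 and 126 in luminal-gated and 105 and 67.0 in basal-gated cells (0.70, adjusted p 0.135, edgeR). Hspa5, with 652 and 827 against 509 and 696, and Hsp90b1, with 565 and 967 against 533 and 871, differed by 0.24 and 0.10 and did not pass. The fit had 1 residual degree of freedom, so that its error came mainly from the trend across genes. All 3 calls were lost without the library block (adjusted p 0.466 to 0.660) and without the low-count filter (0.0525 to 0.238). Luminal-gated cells were also deeper, with medians of 640.5 and 1014 UMIs against 416 and 690, and the part of depth in the differences was not tested.

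From the pathway lists, 5 of 98 genes tested were higher in luminal-gated cells and 0 lower, with 11 at an unadjusted p under 0.05 in either direction (edgeR). The share called higher is near the 5.23% of all genes, of which 19.0% had an unadjusted p under 0.05. The 5 genes are named here after their values were seen. Nupr1 differed by 4.13 ± 0.32 and Txndc5, a thioredoxin-domain isomerase of the ER, by 1.77 ± 0.30 on the log2 scale (adjusted p 3.43e-07 for Txndc5, edgeR). The other 3 were Tmbim6, an ER membrane regulator of cell death, at 0.73, Selenos, a selenoprotein of ER-associated degradation, at 0.71, and Tmed2, a cargo receptor of the early secretory pathway, at 0.84. Txndc5 missed the threshold without the library block (adjusted p 0.0834, edgeR).

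In mice with ovaries the suprabasal gate (Krt1, Krt10, Krt4, Krt13, Krtdap and others) took 441 and 635 cells, and 2 members were called higher and 2 lower there than in basal-gated cells. The members took 0.581% and 0.625% of UMIs in suprabasal-gated cells, against 0.763% and 0.706% in basal-gated cells of the same libraries. Of 8269 genes tested with the library as a block, 937 (11.3%) were called, 421 (5.09%) higher and 516 (6.24%) lower in the suprabasal gate. Of the 30 members tested, 4 (2 in each direction) were called (edgeR), a share near that of all genes. The median over members was -0.16, with 21 negative, against 0.03 over all genes tested. This fit too had 1 residual degree of freedom, so that its error came mainly from the trend across genes. Ddit3 did not pass the low-count filter.

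The 2 genes that were lower were the main ER chaperones. Hsp90b1 stood at 774 and 439 CPM in suprabasal-gated cells and 1382 and 637 in basal-gated cells of WT libraries 1 and 2, and differed by -0.58 ± 0.12 on the log2 scale (adjusted p 0.00785, edgeR). Hspa5 had 510 and 528 in suprabasal-gated and 786 and 721 in basal-gated cells, and differed by -0.42 ± 0.11 (adjusted p 0.0319, edgeR). Both were lower in the suprabasal gate in both libraries, and for Hspa5 the 2 gates did not overlap across libraries. The 2 genes that were higher were Ssr4 and Herpud1. Ssr4 had 262 and 266 against 188 and 206, a difference of 0.56 ± 0.13 (adjusted p 0.0139, edgeR). Herpud1 had 56.9 and 60.4 against 32.4 and 40.2, a difference of 0.87 ± 0.23 (adjusted p 0.0332, edgeR). For both, each suprabasal value lay above each basal one. Xbp1, with 68.9 and 103 against 50.8 and 64.8, missed the threshold (0.65, adjusted p 0.0572, edgeR), as did Pdia6, with 167 and 245 against 235 and 362 (-0.40, adjusted p 0.0680, edgeR).

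All 4 calls were lost without the low-count filter (adjusted p 0.0521 to 0.374), and with no library block 0 genes passed (edgeR, 401 genes at an unadjusted p under 0.05). Cycling differed between the gates, with a proliferation UMI in 27.4% and 27.7% of suprabasal-gated and 55% and 43.2% of basal-gated cells. Without those cells Hsp90b1 missed the threshold (-0.42, adjusted p 0.0551, edgeR), while Hspa5 differed by -0.56 (adjusted p 0.00280). Under a stricter gate Herpud1 missed it (adjusted p 0.0520, edgeR). Of 126 list genes tested, 2 were higher and 3 lower, against 5.09% and 6.24% of all genes, so the lists lay below these shares. The called list genes too are named after their values were seen. Nupr1 differed by 1.82 and Emc6, a subunit of the ER membrane insertase, by 0.72. Serpinh1, the collagen chaperone, differed by -1.54, Tmx1, a membrane-bound thioredoxin, by -0.92, and Ppib, an ER prolyl isomerase, by -0.43.

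**Figure D4:**
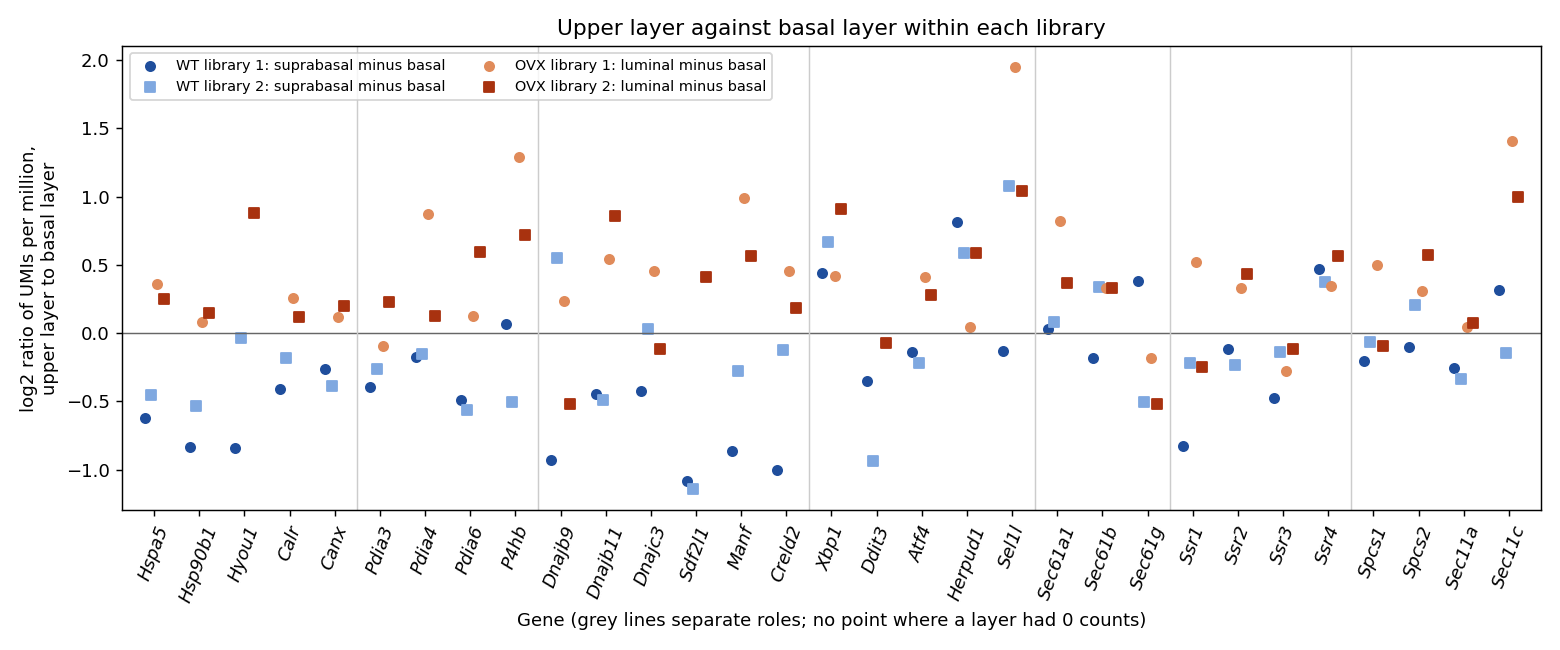
Log2 ratio of CPM between the upper and the basal gate within each library: suprabasal to basal in WT (blue) and luminal to basal in OVX (orange and red), with no point where a gate had 0 counts. For Hspa5, Hsp90b1, Calr, Canx and 8 other genes both blue points lie below 0 and both orange and red points above it.

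The 2 gradients were then compared directly. Of the 31 members, 21 were higher in the luminal than in the basal gate in both OVX libraries, against 28.5% of the 8574 genes of the test below. In both WT libraries 19 members were lower in the suprabasal than in the basal gate, against 39.7%. For 12 members both held, namely Hspa5, Hsp90b1, Calr, Canx, Pdia4, Pdia6, Dnajb11, Manf, Creld2, Atf4, Ssr2 and Sec11a. The share over all these genes was 8.78%. The reverse pattern was seen for 0 members and 4.75% of all genes. A gene with 0 UMIs in a gate counted as neither, so that genes with few UMIs meet these rules less readily. An interaction test, added after the data were seen, asked whether the difference of upper from basal cells was itself larger in OVX than in WT. The upper gates are not the same cells, being luminal in OVX and suprabasal in WT. In OVX suprabasal-gated cells, Hspa5 (723 and 927 CPM) and Hsp90b1 (861 and 985) also lay above basal-gated cells of the same libraries. For these 2 genes a higher level than in basal cells of OVX was thus not particular to the luminal gate. Of 8574 genes tested, 231 (2.69%) passed, 121 (1.41%) of them higher and 110 (1.28%) lower in OVX, and of 29 members tested 2 were higher and 0 lower (edgeR). The difference of differences was 0.70 ± 0.18 on the log2 scale for Hsp90b1 (adjusted p 0.0146, edgeR) and 0.69 ± 0.18 for Hspa5 (adjusted p 0.0177). Manf (1.16, adjusted p 0.0783, edgeR) and Pdia6 (0.80, adjusted p 0.0896) missed the threshold. Of the 29 members, 26 were positive, with a median of 0.34 against -0.02 over all genes tested. Both calls were lost without WT library 1 (adjusted p 0.246 for Hsp90b1 and 0.122 for Hspa5, edgeR), without OVX library 2 (0.427 and 0.272), without the low-count filter (0.507 and 0.540) and without the library block (1.00 for both). Hspa5 also missed it without OVX library 1 (0.118), and without cycling cells Hsp90b1 stood at 0.39 (adjusted p 0.510) while Hspa5 stood at 0.79 (adjusted p 0.0156).

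Set beside the promoter matches, 7 of the 8 genes with a printed element had a negative fold change between OVX and WT in all kept cells, and 14 of the 18 genes with neither element did. In the suprabasal against basal comparison 7 of the 8 were negative, as were 11 of the 17 tested genes with neither element. Of the 4 called genes, 3 carry a printed element, and these do not share a direction. Hsp90b1 and Hspa5 were lower and Herpud1 was higher. In the luminal against basal comparison all 8 were positive and none was called. Of the 15 tested genes with neither element 12 were positive, and Sel1l and P4hb among them were called. The numbers are small and were not tested.

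Cells gated as non-epithelial numbered 20 and 11 in WT and 26 and 43 in OVX. The members took 0.676% and 0.597% of their UMIs in WT and 0.912% and 0.831% in OVX. Without these cells the comparison of all kept cells again called 0 members, with 7 at an unadjusted p under 0.05 against 19.7% of all genes (edgeR) and a median of -0.46. By GENCODE vM21, Pdia3, Pdia6, Manf, Spcs1 and Spcs2 each overlap a coding gene on the opposite strand, and whether counting used strand is not given in the sources used here, so reads of such partners cannot be told apart. Manf also overlaps the coding gene Rbm15b, and Sec11a the coding gene Nmb, on the same strand, where strand would not separate reads.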

How the data were processed

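Each library was deposited as 1 matrix of raw UMI counts, genes by cell barcodes, to which the authors had applied no scaling. Per the submitters' processing notes, the genome build was mm10 and Seurat 2 was among the tools. Strand use, the aligner, the annotation and the choice of barcodes were not given in the sources used here. Cells with 200 or more detected genes and a mitochondrial share of 20% or less were kept, doublets were not removed, and counts were summed per library, or per library and gate. A gated cell held at least 2 UMIs of its leading marker list, and that list, relative to its mean over cells, was at least 1.5 times the next. A cell with 3 UMIs of another cell type's list was set aside as non-epithelial. Gate thresholds, and the removal of Sdc1 from the plasma cell list, were set after marker counts were seen, and never on the 31 genes.

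Sums were tested with edgeR 4.0.16 (quasi-likelihood, TMM, filterByExpr, Benjamini-Hochberg adjustment over all genes tested, threshold 0.05) in R 4.3.3, with the library as a block in comparisons of gates. DESeq2 1.42.0 and limma 3.58.1 were alternatives, and the scripts were tested on simulated data. With 2 libraries a group, an exact permutation test of a single value cannot go below 0.333, so none was run. Named genes are all 31 members and, from the pathway lists, up to 3 called genes per list and direction in all kept cells. Members and lists were chosen with earlier results of these data known. Overlaps come from GENCODE vM21 (GRCm38), in which 94.1% of symbols and all 31 members matched, and promoters from RefSeq (GRCm38.p6). Hyou1, Manf, Sec11c, Sec61a1 and Ssr2 were not in the promoter table.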

Additional observations from a re-analysis of the deposited data

Results flagged for a closer look

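The difference between upper and basal cells of Hsp90b1 and Hspa5 was unlike in the 2 groups by a test of that difference, added after the data were seen. It was larger in OVX than in WT by 0.70 ± 0.18 on the log2 scale for Hsp90b1 and by 0.69 ± 0.18 for Hspa5 (adjusted p 0.0146 and 0.0177, edgeR). Hspa5 was lower in suprabasal-gated than in basal-gated cells in 2 of 2 WT libraries and higher in luminal-gated than in basal-gated cells in 2 of 2 OVX libraries, and Hsp90b1 did the same. In suprabasal-gated cells of OVX, too few for a test, both genes also lay above basal-gated cells in both libraries. Over the alternatives run, the adjusted p ranged from 0.00356 to 1.00 for Hsp90b1 and from 0.00343 to 1.00 for Hspa5.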

How the results depend on the processing

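Genes called between OVX and WT in all kept cells numbered 587, against 1356 with no low-count filter and 308 to 1884 when single libraries were left out (308 without OVX library 2, 384 without OVX library 1, 1621 without WT library 1 and 1884 without WT library 2). Members called lower numbered 3 with no filter and 0 to 2 with a library left out. In the basal gate the count of 310 became 615 with no filter, 180 without cycling cells and 131 to 1273 with a library left out, with 0 to 3 members lower. Between luminal and basal cells 65 genes were called with no library block, and 0 members with no block or no filter. Between suprabasal and basal cells no block left 0 genes (401 at an unadjusted p under 0.05, edgeR), no block or no filter left 0 members higher and 0 lower, and a stricter gate gave 4 lower. For the difference of layers between groups, 105 genes were called with no filter, 0 with no block, 125 without cycling cells and 93 to 260 with a library left out. Members called there were 0 with no filter or no block, 1 without cycling cells and 0 to 3 with a library left out.

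Library numbers do not pair the samples: the difference between WT libraries correlated at -0.568 across 11495 genes, which are not independent replicates, with that between OVX libraries. With the library number as a replicate block, 517 genes and 0 members were called in all kept cells (1 member at an unadjusted p under 0.05, edgeR) and 254 and 0 in the basal gate (also 1). The crossed pairing, chosen after seeing the data, called 3489 genes with 2 members higher and 7 lower in all kept cells, and 1865 genes with 8 members lower in the basal gate.

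Signs turned only for members that were not called in the stated comparison. In all kept cells Dnajb9 (0.02) was -0.0036 over every barcode, -0.022 by limma-trend, -0.12 with no filter, -0.017 with the replicate block and -0.040 without non-epithelial cells. Atf4 became 0.073 with library totals and 0.025 without the 5% of cells with most UMIs. Sec61a1 became -0.085 with no filter, -0.012 without non-epithelial cells and -0.072 without the top 5%. With a library left out, Atf4 ranged from -0.51 to 0.54, Calr from -0.99 to 0.42, Dnajb9 from -0.30 to 0.24, Hsp90b1 from -0.89 to 0.25, Hspa5 from -0.47 to 0.063, Sec11c from -0.50 to 0.087, Sec61a1 from -0.10 to 0.17, Sec61g from -1.17 to 0.69 and Spcs1 from -1.16 to 0.20. In the basal gate Dnajb9 became -0.013 with no filter and -0.32 without cycling cells, Sec61a1 0.014 by DESeq2, 0.019 with library totals and 0.24 with a stricter gate, and Sec61g 0.060 under the crossed pairing. There the ranges with a library left out were -0.79 to 0.41 for Atf4, -1.02 to 0.36 for Calr, -0.14 to 0.70 for Dnajb9, -0.77 to 0.14 for Dnajc3, -1.08 to 0.13 for Hsp90b1, -0.23 to 0.20 for Sec61a1, -1.13 to 1.04 for Sec61g and -1.17 to 0.22 for Spcs1. Between luminal and basal cells, no filter turned Hsp90b1 (-0.052), Calr (-0.042), Canx (-0.0099), Pdia3 (-0.060), Dnajc3 (-0.097), Spcs1 (-0.048) and Sec11a (-0.12). Hsp90b1 was -0.022 without cycling cells, and Ssr1 was 0.052 with no block and 0.14 with a stricter gate. Between suprabasal and basal cells a stricter gate gave 0.0046 for Pdia4 and 0.0039 for Atf4. Leaving out cycling cells gave 0.025 for Dnajc3 and -0.027 for Sec61g, no block -0.067 for Sec61g and 0.035 for Spcs1, and no filter 0.025 for Spcs1. In the difference of layers, Dnajb9 was -0.012 with no filter and -0.063 with no block, Sdf2l1 -0.19 and Xbp1 -0.099 with no block, and Herpud1 0.30 with a stricter gate. With a library left out, the ranges were -1.03 to 0.47 for Dnajb9, -0.13 to 0.50 for Dnajc3, -5.23 to 1.34 for Sdf2l1, -0.20 to 0.36 for Sec61b, -0.13 to 0.39 for Spcs1, -0.21 to 0.19 for Ssr3 and -0.33 to 0.22 for Xbp1.

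The cause of these changes was not tested, apart from the fewer libraries or cells that some alternatives hold. The comparison of suprabasal cells between groups and its alternatives were not run, as OVX library 1 held 46 such cells. Leaving a library out of a comparison of gates within 1 group leaves no residual degrees of freedom, so no such test was run. Where a group kept 1 library, that library was assumed to vary like those of the other group. Depth limits the low members most, since Sdf2l1, Ddit3, Hyou1 and Dnajb9 had few UMIs per gate in OVX. Nupr1 was called in all kept cells under all 14 alternatives run, with log2 fold changes from 2.40 to 3.31.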
